A study of Homo sapiens with 6 samples.

Results

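The replication-dependent histone genes are the protein-coding rows of the count table whose symbols carry the cluster names of the H2A, H2B, H3 and H4 classes (H2AC, H2BC, H3C or H4C and a number) or are H1-1 to H1-6. They number 69 of the 62700 rows: 6 H1, 17 H2A, 18 H2B, 13 H3 and 15 H4 genes, of which 55 lie on chromosome 6, 13 on chromosome 1 and 1 on chromosome 12. Poly(A)-selected RNA was sequenced from SAS cells, a squamous carcinoma line of the tongue, in 3 libraries given a control siRNA (siC) and 3 given an siRNA against IGF2BP1 (siIGF2BP1). All 6 libraries come from this single line and are labelled wild type. The labels do not say whether the replicates were separate cultures, and the p-values reflect only how far the 3 libraries of a group lie apart, a spread that may be technical.

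Replication-dependent histones package the DNA made in S phase, when their genes are transcribed together from clusters. Their mRNAs are the textbook exception to polyadenylation: the mature end is a conserved stem-loop, bound by SLBP (stem-loop binding protein) and cut downstream of it with the help of the U7 snRNP, an RNA-protein particle. Minor forms that run past the stem-loop and end in a poly(A) tail are known for several of these genes. IGF2BP1 is an RNA-binding protein that stabilises many mRNAs it binds. Oligo-dT capture misses RNA without a poly(A) tail, so every level given here is of histone RNA recovered after that capture, and a change in transcript amount and a change in the tailed fraction cannot be told apart. In bulk RNA, fewer cells in a phase of the cycle and less RNA per cell cannot be told apart either.

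The stem-loop was searched for in the annotated transcripts (GENCODE 29, GRCh38) and found in those of 31 members, 21 of them among the genes tested. Its 16 bases read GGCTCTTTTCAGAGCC in 17 genes, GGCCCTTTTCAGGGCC in 5, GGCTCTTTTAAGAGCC in 4 and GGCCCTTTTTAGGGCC in 3. The sites below are printed because they belong to called genes, to the uncalled gene nearest the threshold, to the member with the most reads, and to a gene whose annotated transcript ends at the stem-loop (H4C11). Each is shown 5′ to 3′ with 6 flanking bases on each side, with the stem-loop in capitals.
H2AC6, chr6:26124663-26124690, plus strand: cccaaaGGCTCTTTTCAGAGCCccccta
H4C14, chr1:149833026-149833053, plus strand: cccaaaGGCCCTTTTTAGGGCCgaccac
H4C15, chr1:149860763-149860790, minus strand: cccaaaGGCCCTTTTTAGGGCCgaccac
H2BC21, chr1:149886182-149886209, minus strand: tccaaaGGCTCTTTTCAGAGCCacccac
H2AC25, chr1:228457363-228457390, minus strand: cataaaGGCTCTTTTCAGAGCCacctac
H4C11, chr6:27824453-27824480, plus strand: ataaaaGGCCCTTTTCAGGGCCacccta
The longest annotated RNA runs on past the stem-loop for 1128 bases in H2AC6, 1167 in H4C14, 1314 in H4C15 and 1729 in H2BC21, against 390 in H2AC25 and 6 in H4C11. The printed sites of H4C14 and H4C15 are the same letters. For H3C2 and H4C3 the annotated transcripts are 411 and 435 bases long at most and hold no stem-loop by this search. An annotated transcript that stops before the stem-loop cannot show it. The count of 31 therefore describes the annotation and not which genes carry a stem-loop.

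IGF2BP1, the targeted gene, was lower in every knockdown library than in every control. It stood at 8.11, 9.60 and 11.2 CPM (read counts scaled to library size with TMM factors) in the controls and at 1.60, 1.09 and 0.806 in the knockdown libraries, a log2 fold change of -3.07 (SE 0.304, adjusted p = 4.56e-06 by edgeR's quasi-likelihood test). Library totals ranged from 17918496 to 26675064 counted reads, so 3 reads correspond to 0.115 to 0.165 CPM. The summed squamous epithelial markers, 0 of 9 at zero, ranged from 9261 to 10220 CPM in controls and from 5612 to 6128 CPM after knockdown. Most of that difference was in KRT5 (3584 to 477 CPM on average), with KRT14, KRT6A and PKP1 also called lower, while KRT17, SFN, TP63, DSP and EPCAM had log2 fold changes between -0.12 and 0.12 and were not called. Of 4 leukocyte markers 3 were at 0, PTPRC among them, of 4 fibroblast markers 2 and of 4 endothelial markers 1. Their sums ranged from 17.01 to 18.4 CPM in controls and 11.95 to 13.8 after knockdown for leukocytes, from 5.51 to 7.84 and 4.34 to 7.64 for fibroblasts, and from 6.29 to 7.41 and 6.17 to 13.5 for endothelium. Knockdown 1 stood apart in ribosomal RNA, at 804 CPM against 31.9 to 79.9 CPM in the other libraries. Without it the log2 ratio of the summed histone level was 0.54, against 0.52 with it, and 5 histone genes were called.

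Summed over all 69 members, histone RNA stood at 88.8, 77.8 and 78.8 CPM in the controls and at 114, 125 and 113 CPM after knockdown. Every knockdown library lay above every control, and the mean went from 81.8 ± 6.09 to 117 ± 6.37 CPM (SD, n = 3 per group), a ratio of 1.43. The ratio was 1.86 for H4 (12.2 to 22.6 CPM), 1.62 for H1 (11.6 to 18.8), 1.60 for H3 (8.28 to 13.3), 1.35 for H2B (13.9, 10.4 and 11.7 CPM in controls, 17.7, 14.4 and 16.3 after knockdown) and 1.23 for H2A (37.8 to 46.5). The order of the classes is not fixed: without knockdown 3 the log2 ratio was 0.90 for H3 and 0.86 for H4, and without H1-2 it was 1.01 for H1, against 0.89 for H4 with all its members. Among the 5 classes, only for H3 did the groups overlap, with control 1 at 9.64 and knockdown 3 at 8.79 CPM. These sums carry no test, because the members were chosen with results of these data known.

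**Figure D1:**
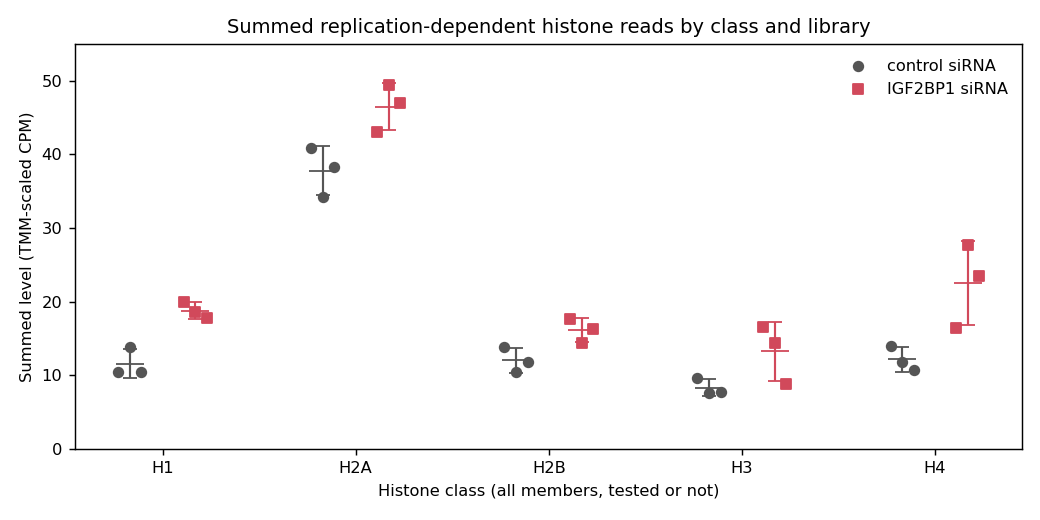
Summed TMM-scaled CPM of all members of each histone class in each library, controls and knockdown libraries side by side. H2A holds the largest sums (37.8 CPM on average in controls) and H4 has a ratio of group means of 1.86.

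By position, the sum over the chromosome 6 genes went from 43.3 ± 3.22 to 66.4 ± 4.99 CPM, a ratio of 1.53, and that over chromosome 1 from 38.4 ± 5.37 to 50.4 ± 2.72 CPM, a ratio of 1.31 (SD, n = 3 per group). Chromosome 1 holds a main cluster and a distant pair, and the difference between them was not tested. The main cluster of 11 genes went from 16.9 ± 2.27 to 30.5 ± 3.53 CPM, a ratio of 1.80, while the distant pair H2AC25 and H2BC26 went from 21.5 ± 4.40 to 19.9 ± 0.852 CPM, a ratio of 0.928. That pair held 26.4% of all member reads in controls and 17.04% after knockdown. Nearly all of its reads were from H2AC25, with 1524 in controls and 1312 after knockdown, against 29 and 29 for H2BC26. The ratio of the pair is thus in effect that of a single gene. Its groups overlap, with control 2 at 16.4 and control 1 at 23.9 CPM on either side of the knockdown libraries. Without H2AC25 the sum of the other 68 genes went from 60.8 to 97.7 CPM, a ratio of 1.61.

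Of the 69 genes, 41 passed the count filter and were tested. Of these 41, 5 were higher (12.2%) and 0 lower, where 6.27% of all 14649 genes tested were higher and 6.66% lower (918 and 975 genes; 1319 and 768 with no scaling factor). The share called higher rests on 5 genes and is given as a description. At an unadjusted p under 0.05, 13 were higher and 0 lower. The share of all genes at that level was not taken, so this count and those by class below have no background. The count of 5 became 7 with DESeq2 and 4 with the stricter count filter, and fell to 3, 2 and 1 without controls 1, 2 and 3 and to 2 and 1 without knockdowns 2 and 3. The log2 fold change was above 0 in 34 of 41 (82.9%), against 53.3% of all genes tested, and its median was 0.59 against 0.033 over all genes. Groups did not overlap with knockdown higher in 15 genes (36.6%, background 15.5%) and with knockdown lower in 0 (background 15.1%). The filter can favour genes high in 1 group: 25 of the 41 passed its level of 0.420 CPM in all libraries, 9 in every knockdown library but not every control (among them H3C2 and H4C3), 1 in every control but not every knockdown library (H3C1), and 6 in a mixture. Over the 60 members with any read, filtered or not, the mean was higher after knockdown in 47 (78.3%), against 54.1% of all genes with reads.

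**Figure D2:**
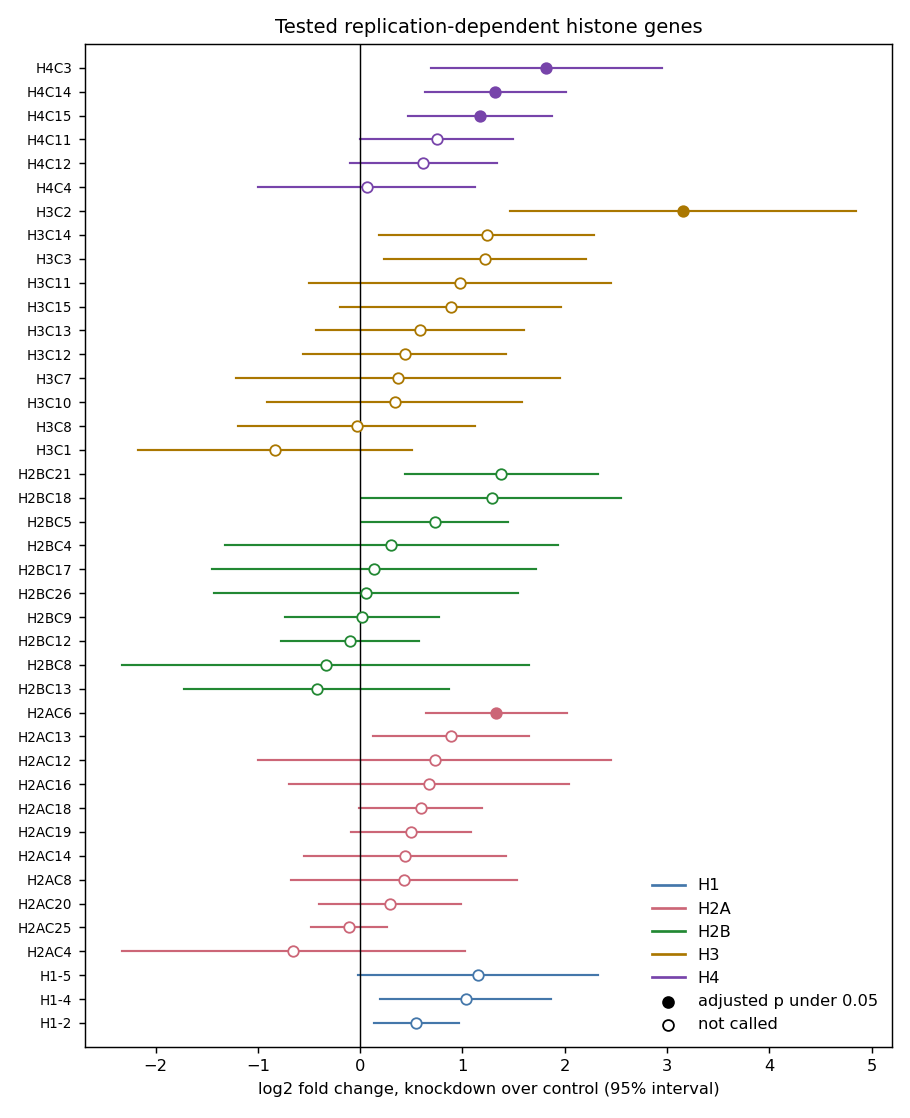
Log2 fold change, knockdown over control, with its 95% interval for each of the 41 tested members, ordered by class. Points right of 0 were higher after knockdown; 34 of the 41 lie there and the 5 called genes have intervals that start at 0.47 or higher.

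H4 genes, which encode the most conserved core histone, gave 3 of the 5 calls. Tested were 6 H4 genes, and 6.27% of all genes were called higher. The calls of H4C14 and H4C15 are not separate, since reads may be shared between the copies. H4C14 (chr1, 149832657 to 149833052) and H4C15 (chr1, 149844488 to 149861240), both in the main chromosome 1 cluster, held 2.37, 1.59 and 1.38 CPM and 2.28, 2.20 and 1.31 CPM in the controls. After knockdown they held 3.90, 5.43 and 3.99 CPM and 3.41, 5.47 and 4.11 CPM. All knockdown libraries exceeded all controls for both. By edgeR's quasi-likelihood test H4C14 was higher by a log2 fold change of 1.32 (SE 0.325, adjusted p = 0.0122) and H4C15 by 1.17 (SE 0.332, adjusted p = 0.0267). Every window of 75 bases in the annotated transcripts of either gene also occurs in the other, so single values are uncertain. Their exons also overlap genes on the opposite strand by 9.22% and 8.97%. The sum of the pair went from 3.71 ± 0.982 to 8.77 ± 1.88 CPM (SD, n = 3), a ratio of 2.37. The call of H4C14 was lost without control 2 (adjusted p = 0.0657), control 3 (0.0664) or knockdown 2 (0.0528), and that of H4C15 without control 1 (0.0518), control 2 (0.0681), control 3 (0.124), knockdown 2 (0.110) or knockdown 3 (0.0640), all by edgeR's quasi-likelihood test.

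H4C3, in the chromosome 6 cluster (chr6, 26103933 to 26104337), rose from 1.36, 0.474 and 0.230 CPM to 1.98, 3.15 and 2.11 CPM, a log2 fold change of 1.82 (SE 0.535, adjusted p = 0.0330 by edgeR's quasi-likelihood test). The spread among controls was wide, with 31, 11 and 6 reads. Without control 1 the log2 fold change was 2.75, and the call was lost without control 2 (adjusted p = 0.143), control 3 (0.129), knockdown 2 (0.110) or knockdown 3 (0.0627), by edgeR's quasi-likelihood test. H4C11 and H4C12, near-identical H4 genes with promoters alike at 295 of 300 positions, were not called: the H4C11 value was 0.75 on the log2 scale (adjusted p = 0.197, edgeR), and its controls at 2.85, 2.93 and 2.99 CPM lay between knockdown 1 at 2.14 and the others at 6.70 and 5.80. Without knockdown 1 its log2 fold change was 1.09 and the gene was called (adjusted p = 0.0235, edgeR). H4C12 had 0.62 and H4C4 0.07 on the log2 scale.

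H2AC6 (chr6, 26124172 to 26124690), an H2A gene, had the most reads of the 5 called genes. It stood at 2.24, 4.01 and 1.77 CPM in controls and at 5.11, 6.39 and 8.56 CPM after knockdown, a log2 fold change of 1.33 (SE 0.326, adjusted p = 0.0118 by edgeR's quasi-likelihood test). Its windows of 75 bases occur in no other gene's annotated transcript. Only exact matches at that length were searched, so sharing of shorter or mismatched reads was not tested. The call was lost without control 1 (adjusted p = 0.0579), control 3 (0.0629) or knockdown 3 (0.0754), by edgeR's quasi-likelihood test. H2BC4 is read outward from the same promoter stretch, 246 bases away on the opposite strand. It held 2.02, 0.172 and 0.192 CPM in controls and 0.935, 0.744 and 1.23 CPM after knockdown, with a log2 fold change of 0.30 (95% interval -1.32 to 1.93), and its groups overlap, control 1 being the highest of the 6 libraries. Without control 1 the value was 2.34, and without control 2 or control 3 it was -0.20.

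The promoter windows (250 bases before to 50 after the start, RefSeq GRCh38.p14) were matched for 64 members. CCAAT, on either strand, was in 54 of these (84.4%) against 34.6% of 35116 promoters, and TATAAA in 42 (65.6%) against 11.5%. The octamer ATTTGCAT, known from H2B promoters, was in 26 (40.6%) against 1.77%, and in 14 of 18 H2B promoters. The window of H2AC6 is printed because it lies between that gene and H2BC4, with these motifs, on either strand, in capitals; matches describe letters and not binding.
H2AC6 promoter, chr6:26123922-26124221, plus strand: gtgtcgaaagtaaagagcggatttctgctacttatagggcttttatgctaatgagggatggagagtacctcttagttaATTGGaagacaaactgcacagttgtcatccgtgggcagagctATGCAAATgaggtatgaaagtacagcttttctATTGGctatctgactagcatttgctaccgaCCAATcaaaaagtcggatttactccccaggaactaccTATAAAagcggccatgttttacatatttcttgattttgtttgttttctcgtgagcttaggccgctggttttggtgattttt
The promoter of H3C2, the gene with the largest fold change, holds CCAAT and TATAAA but no octamer, shown in the same way.
H3C2 promoter, chr6:26032050-26032349, minus strand: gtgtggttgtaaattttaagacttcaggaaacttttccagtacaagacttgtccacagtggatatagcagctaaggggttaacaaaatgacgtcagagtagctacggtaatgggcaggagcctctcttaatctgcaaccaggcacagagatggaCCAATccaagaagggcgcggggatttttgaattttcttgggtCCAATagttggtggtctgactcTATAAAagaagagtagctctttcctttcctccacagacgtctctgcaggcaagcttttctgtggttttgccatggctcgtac

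H3C2 (chr6, 26031589 to 26032099), an H3 gene, had the largest fold change but the fewest reads of the called genes. Controls held 2, 1 and 3 reads and knockdown libraries 16, 16 and 20. In CPM these are 0.0876, 0.0431 and 0.115 against 0.880, 0.700 and 0.768, and every control lay at or under the level of 3 reads. Its fitted log2 fold change came to 3.16 (SE 0.797, adjusted p = 0.0140 by edgeR's quasi-likelihood test), and the ratio of summed reads, scaled to depth, was 9.31 with a 95% counting interval of 4.002 to 26.5. The call was lost without control 1 (adjusted p = 0.0579), control 2 (0.0758), knockdown 1 (0.0629) or knockdown 3 (0.0625), by edgeR's quasi-likelihood test. Its windows of 75 bases occur, by exact match, in no other annotated transcript. These windows come from a transcript of 411 bases, shorter than the gene length of 511 in the count table. Sharing of reads beyond that was not tested.

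Other H3 genes were not called. H3C14 and H3C15, a pair with identical annotated sequence, had log2 fold changes of 1.24 (adjusted p = 0.120) and 0.88 (adjusted p = 0.305, edgeR for both), and knockdown 1 was the highest library for each, at 3.57 and 3.02 CPM. H3C3 had 1.22 (adjusted p = 0.102), H3C11 0.97, H3C13 0.59, H3C12 0.44, H3C7 0.37, H3C10 0.34, H3C8 -0.03 and H3C1 -0.83 (adjusted p = 0.459, edgeR). H3C1 went from 0.789, 0.948 and 0.576 CPM to 0.660, 0.306 and 0.346 CPM, with overlap, and it had the lowest value of the tested members. The exons of H3C14 and H3C15 each overlap an opposite-strand gene by 10.4%, and H3C12 shares 44.6% of its exon bases with another gene on its strand.

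**Figure D3:**
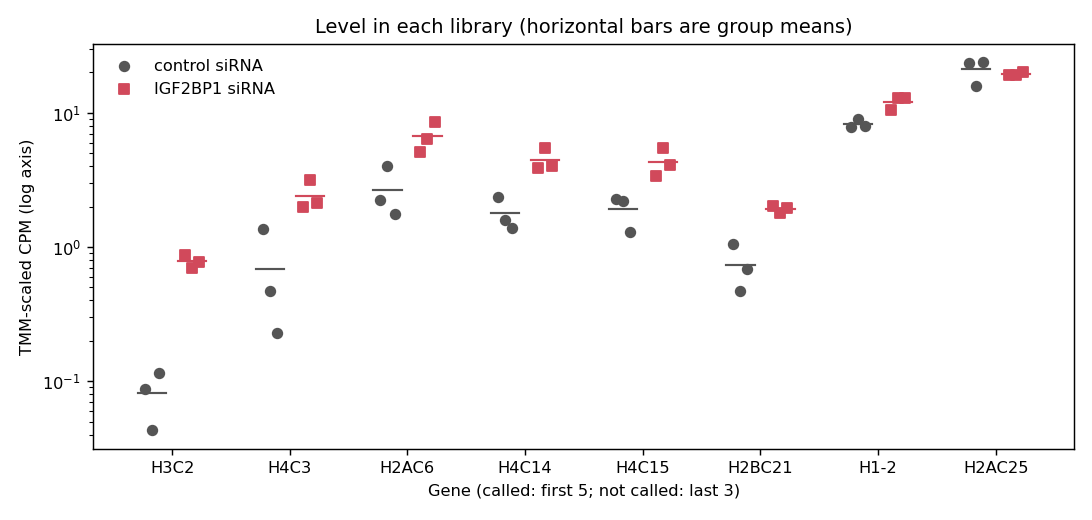
Level of 8 members in each library on a log axis in TMM-scaled CPM, with bars at group means: the 5 called genes, then H2BC21, H1-2 and H2AC25. In the 5 called genes all knockdown points lie above all control points, and H2AC25 sits near 20 CPM in both groups.

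Among H2A genes, H2AC25 took the most reads and was not called. It stood at 23.6, 15.8 and 23.8 CPM in controls and at 19.1, 19.1 and 20.3 CPM after knockdown, a log2 fold change of -0.11 (95% interval -0.48 to 0.26, adjusted p = 0.753, edgeR). Per gene length, in RPKM, the CPM divided by gene length in kilobases, its level was 11.4 ± 2.45 in controls, level with H1-2 at 11.3 ± 0.831 (SD, n = 3 each) and above the third gene, H4C11, at 7.52 ± 0.187. H2AC13 stood at 1.23, 1.64 and 1.19 CPM against 2.36, 2.71 and 2.42 CPM without overlap, and its log2 fold change of 0.89 was not called (adjusted p = 0.124, edgeR). The near-identical pair H2AC18 and H2AC19 had 0.59 and 0.50, H2AC12 0.73, H2AC16 0.68, H2AC14 0.44, H2AC8 0.43, H2AC20 0.29 and H2AC4 -0.66. Of the windows of 75 bases in H2AC13 60.1% also occur in H2AC14, and 82.4% of those in H2AC14 occur in H2AC13. Their single values are therefore uncertain. Among all tested members 14 share at least 10% of such windows with another gene, H3C13 (70.3%) and H2BC12 (50.5%) among them.

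H2B genes gave 0 calls among 10 tested (edgeR, with 3 higher and 0 lower at an unadjusted p under 0.05), with a median log2 fold change of 0.10. Of all genes 6.27% were called higher, so 0 among 10 does not set this class apart. H2BC21 came closest: at 1.05, 0.474 and 0.691 CPM in controls and 2.03, 1.79 and 1.96 CPM after knockdown its groups do not overlap, and its log2 fold change was 1.38 (95% interval 0.43 to 2.32, adjusted p = 0.0523, edgeR). It was called in 4 of the 13 other settings. These were DESeq2 (adjusted p = 0.0420) and, in edgeR, leaving out control 1 (log2 fold change 1.68, adjusted p = 0.0485), no scaling factor (0.0385) and the replicate block (0.0383). H2BC18 had 1.29, H2BC5 0.73, H2BC17 0.14, H2BC26 0.06, H2BC9 0.01, H2BC12 -0.10, H2BC8 -0.34 and H2BC13 -0.43. H2BC21 lies 236 bases from H2AC20, with log2 fold changes of 1.38 and 0.29, and H2BC13 lies 244 bases from H2AC13, with -0.43 and 0.89; these are head-to-head pairs and the differences between partners were not tested.

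Of the linker histone H1 genes, whose proteins bind the DNA between nucleosomes, 3 were tested and 0 were called by edgeR. At an unadjusted p under 0.05, 2 were higher and 0 lower. With 6.27% of all genes called higher, 0 among 3 does not set this class apart. H1-2 went from 7.84, 8.96 and 7.98 CPM to 10.5, 12.9 and 12.9 CPM without overlap, a log2 fold change of 0.55 (95% interval 0.14 to 0.96, adjusted p = 0.0773, edgeR). It was called by DESeq2 (adjusted p = 0.0494) and, in edgeR, with no scaling factor (0.0426). H1-4 had 1.03 (adjusted p = 0.103, edgeR), with control 2 at 4.01 CPM above knockdown 3 at 3.46. Without control 2 the H1-4 log2 fold change was 1.58 and the gene was called (adjusted p = 0.0233, edgeR), as it was with no count filter (0.0291, edgeR). H1-5 went from a mean of 0.497 to 1.11 CPM, with 1.15 on the log2 scale (adjusted p = 0.204, edgeR).

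The calls lay on both chromosomes: 2 of 12 tested on chromosome 1 (16.7%; median log2 fold change 0.74) and 3 of 29 on chromosome 6 (10.3%; median 0.44), against 6.27% of all genes called higher. In the main chromosome 1 cluster all 10 tested genes had values above 0, with 7 that do not overlap, where 53.3% of all tested genes were above 0 and 15.5% lay higher without overlap. These 10 include the near-identical pairs H4C14 and H4C15 (the 2 calls), H3C14 and H3C15, and H2AC18 and H2AC19. Such copies may share reads, so the counts are not of 10 separate signals. The table's gene lengths also divide the members. Of 9 tested genes with a model of at least 1000 bases 3 were called, H4C14 and H4C15 among them, with a median of 1.17. Of 32 shorter ones 2 were called (6.25%, near the 6.27% of all genes), with a median of 0.57. Above 0 lay 88.9% of the long and 81.2% of the shorter ones, and 55.6% and 31.2% lay higher without overlap. The summed levels, over tested and untested members, had the other order, with a ratio of 1.34 for long models and 1.49 for shorter ones. Differences between these sets were not tested.

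The other 28 members were too low to test. With 0 reads in all libraries there were 9: the testis-linked H1-6, H2AC1 and H2BC1, and H2AC11, H2BC11, H3C4, H4C6, H4C7 and H4C9. A further 16 had at least 10 reads in all, with control and knockdown sums of 7 and 17 for H1-1, 22 and 20 for H1-3, 0 and 11 for H2AC15, 8 and 35 for H2AC21, 8 and 24 for H2BC10, 2 and 9 for H2BC14, 14 and 32 for H2BC15, and 9 and 17 for H2BC3. The sums were 21 and 33 for H2BC6, 5 and 25 for H2BC7, 8 and 3 for H4C1, 5 and 8 for H4C13, 10 and 30 for H4C16, 17 and 4 for H4C2, 27 and 17 for H4C5, and 9 and 18 for H4C8. Another 3 (H2AC7, H2AC17 and H3C6) had fewer. The means of 13 of the 19 untested members with reads were higher after knockdown.

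Genes that handle histone mRNA and chromatin were read beside the members. Of the genes of 3′ end processing and decay, 20 of 22 were tested, with 0 higher and 2 lower, a share near the 6.66% of all genes called lower. The 2 calls fell to 0 without control 2, without knockdown 2 or with no scaling factor. SLBP, which binds the stem-loop, fell from 47.0, 50.7 and 53.7 to 33.6, 33.5 and 42.2 CPM, a log2 fold change of -0.47 (SE 0.132, adjusted p = 0.0263, edgeR), and CSTF2, a cleavage stimulation factor subunit, fell by 0.59 (adjusted p = 0.0331, edgeR). The SLBP call was lost without control 2 (adjusted p = 0.0692), control 3 (0.0862), knockdown 1 (0.0612) or knockdown 2 (0.0562), and with no scaling factor (0.0518), and that of CSTF2 without control 2 (0.183), knockdown 2 (0.0620) or knockdown 3 (0.102), and with no scaling factor (0.0648). LSM11 of the U7 particle had a log2 fold change of 0.11, and CASP8AP2, with 30 control reads, was not tested.

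Of the histone genes expressed outside S phase, 11 of 15 were tested, with 1 higher and 2 lower, against 6.27% and 6.66% of all genes. H2AZ1, the H2A.Z variant, fell from 325, 403 and 358 to 193, 268 and 275 CPM, a log2 fold change of -0.56 (adjusted p = 0.00980, edgeR; lost without control 2, 0.0712). MACROH2A2 fell by 0.60 and MACROH2A1 rose by 0.34, by edgeR. The MACROH2A1 call was lost with RLE scaling (adjusted p = 0.0521) and without control 1, 2 or 3 or knockdown 3 (adjusted p up to 0.133), and that of MACROH2A2 without control 1 (0.0593) or knockdown 3 (0.0614). H3-3A had -0.35 (adjusted p = 0.0582) and H3-3B 0.08 (adjusted p = 0.683, edgeR for both). H3-3A was called lower in 7 of the 13 other settings. These were DESeq2 (adjusted p = 0.0396) and, in edgeR, leaving out control 1 (0.0397) or knockdown 3 (0.0450). The others, also in edgeR, were RLE scaling (0.0492), no count filter (0.0151), the stricter filter (0.0303) and the replicate block (0.0153).

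Of 11 tested genes of histone transcription and S phase entry, 4 were lower and 0 higher, against 6.66% and 6.27% of all genes: CCNE1, cyclin E1, by 1.24, CDC25A by 1.02, E2F2 by 0.79 and E2F1 by 0.64 (log2). CCNE1 went from 24.8, 20.2 and 20.6 to 6.98, 10.1 and 10.4 CPM, and all 4 calls held in each of the 13 other settings run. Not all members of the list lay lower: E2F3 stood at 0.79 on the log2 scale (adjusted p = 0.0717, edgeR) with every knockdown library above every control, and CCNE2, cyclin E2, had 1.06 (adjusted p = 0.427, edgeR) with overlap. With DESeq2, or without control 3, 1 gene of this list was called higher. NPAT, the histone transcription coactivator, was not tested. Among 17 tested histone chaperones 2 were lower, CHAF1A (-0.73) and TONSL (-0.35), and 0 higher, against 6.66% and 6.27% of all genes. With no scaling factor, with the replicate block, or without control 1, control 3 or knockdown 1, 1 chaperone was called higher, and with no count filter 2 were. All 30 DNA replication genes were tested, with 12 lower and 0 higher, against 6.66% of all genes lower: ORC1 (-0.82), GINS3 (-0.67), POLE (-0.64), MCM2 (-0.53), PCNA (-0.53), GINS1 (-0.53), GINS2 (-0.52), LIG1 (-0.51), RRM2 (-0.46), MCM3 (-0.42), MCM5 (-0.41) and FEN1 (-0.34). Calls lost on leaving out a library were those of FEN1 (control 1, control 2, knockdown 2 or knockdown 3; adjusted p up to 0.125), PCNA (control 2, control 3 or knockdown 1; up to 0.112), GINS3 (control 3, knockdown 1 or knockdown 3; up to 0.122), RRM2 (control 3 or knockdown 3; up to 0.0782), GINS2 and MCM3 (control 2; 0.0580 and 0.0571), MCM5 (knockdown 3; 0.0516) and TONSL (control 1, control 2, knockdown 2 or knockdown 3; up to 0.0949), all by edgeR. With no scaling factor the calls of FEN1 (adjusted p = 0.0901), PCNA (0.0584) and TONSL (0.0604) were lost in edgeR, and that of FEN1 also with limma-voom (0.0587). In all 3 knockdown libraries the summed histone RNA lay above every control library. Each of these 12 replication genes lay below, but they were picked by their calls in the same libraries, which nearly fixes that outcome. Over all 30 genes of that list the median log2 fold change was -0.30. Of the 30, 4 had values above 0, among them TYMS (0.19), which lay higher without overlap. The relation between the histone sum and these genes was not tested.

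RNAs that carry no poly(A) tail were compared as a gauge of the capture. The gauge is partial: RN7SL2, RN7SK, RPPH1, TERC, VTRNA1-1 and SCARNA2 had 0 reads in every library. Whether that lies in the capture or in the counting was not tested. Ribosomal RNA rows summed to 51.4, 70.4 and 31.9 CPM in controls and 804, 79.9 and 55.4 CPM after knockdown, so knockdown 1 stands apart. RN7SL1, the signal recognition particle RNA, stood at 33.9, 139 and 18.3 CPM and at 368, 447 and 60.1 CPM, with a log2 fold change of 2.20 (adjusted p = 0.360, edgeR; 0.0428, limma-voom), and RMRP reached 28.7 CPM in knockdown 1 against 1.08 to 4.11 CPM elsewhere. Small nucleolar RNAs summed to 60.0, 68.1 and 42.2 CPM against 45.6, 45.8 and 46.3 CPM, and small nuclear RNAs to 4.21 to 6.87 CPM throughout. Of 31 such RNAs tested, SNORD3A was higher (1.25; call lost without control 3, adjusted p = 0.0550) and SNORA73B lower (-1.62; lost without control 1, 0.0507), by edgeR. The part of RNA capture in the histone values was not tested.

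**Figure D4:**
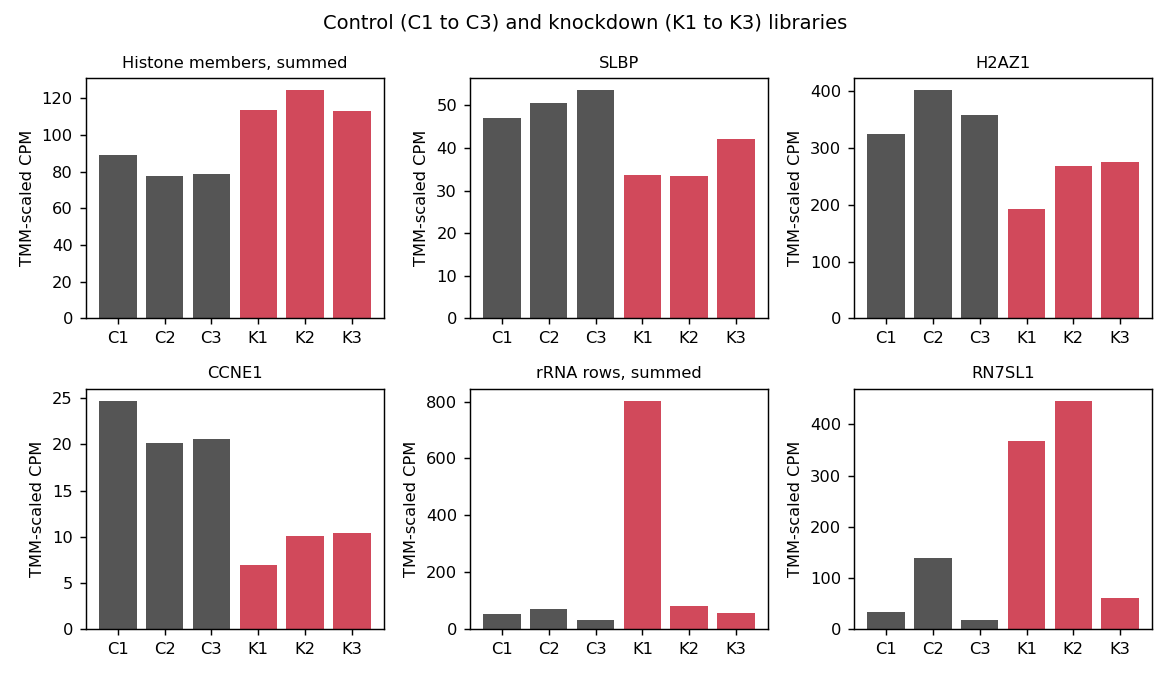
TMM-scaled CPM in each library (C1 to C3 controls, K1 to K3 knockdown) of the summed histone members, SLBP, H2AZ1, CCNE1, the summed ribosomal RNA rows and RN7SL1, each panel from 0. The histone sum lies between 77.8 and 88.8 CPM in controls and 113 and 125 CPM after knockdown, while ribosomal RNA reaches 804 CPM in knockdown 1 alone.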

How the data were processed

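The authors deposited a table of unscaled gene-level read counts with a column for each library, and a gene length in bases. Per the labels' protocols, RNA was extracted with TRIZOL, captured on poly-T beads and made into directional dUTP libraries. Per the submitters' processing notes, cutadapt 2.8, HISAT2 2.1.0, SAMtools 1.10, featureCounts 2.0.0 and hg38 were used; near-identical histone copies are uncertain, since how multi-mapped reads, strand and annotation were handled is not given in the sources used here. Counting intervals and floors cover counting error only.

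Genes were filtered with filterByExpr (minimum count 10, minimum total 15), leaving 14649, and fitted in R 4.3.3 by edgeR 4.0.16 (TMM, robust glmQLFit, glmQLFTest, group only), called at a Benjamini-Hochberg adjusted p under 0.05. Fold changes are knockdown over control. Gene positions and promoters come from RefSeq (GRCh38.p14), stem-loops from GENCODE 29. Replicates differed by more than sampling noise. The members and lists were chosen with earlier results of these data known. Every tested member is named, untested members with at least 10 reads, and from each list the called genes and some set genes, of which 1 is not reported here. In 5 simulations of this comparison over 14649 genes, 25.1% of 1.5-fold, 53.1% of 2-fold and 81.2% of 4-fold changes were recovered, and 52 of 582 calls (8.93%) were false. The altered genes were drawn at random from all genes tested, and each simulation altered fewer genes than were called in the data. These shares therefore need not hold for the histone genes, whose counts are low. Alternatives were a replicate block, RLE or no scaling factor, an unfiltered table, a filter of 1 CPM in 3 samples, each library left out, DESeq2 1.42.0 and limma-voom (limma 3.58.1).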

Additional observations from a re-analysis of the deposited data

How the results depend on the processing

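Histone calls numbered 5 with RLE scaling, 7 with no scaling factor, 6 with no filter (60 tested), 4 with the stricter filter (27 tested), 7 with DESeq2 and 5 with limma-voom, and 1 to 5 when a library was left out (3, 2 and 1 without controls 1, 2 and 3, and 5, 2 and 1 without knockdowns 1, 2 and 3), with 0 lower in each. All genes called ranged from 1231 to 1948 (529 to 828 higher, 702 to 1141 lower) with a library left out; with no scaling factor 1319 were higher and 768 lower, against 918 and 975. Whether replicate numbers pair the libraries is not settled by 3 libraries per group. Correlations of same-numbered deviations were 0.179, 0.0863 and -0.07, against -0.235 to 0.166 for differently numbered ones. With a replicate block 2431 genes and 6 histone genes were called, against 1893 and 5 without it.

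The log2 ratio of summed levels ranged with a library left out from 0.47 to 0.58 for all members, 0.63 to 0.85 for H1, 0.23 to 0.36 for H2A, 0.34 to 0.54 for H2B, 0.48 to 0.90 for H3, 0.71 to 1.07 for H4, 0.29 to 0.49 for chromosome 1 and 0.56 to 0.67 for chromosome 6. Without the most-read gene of each it was 0.69 for all members and 0.69 for H2A (H2AC25), 1.01 for H1 (H1-2) and 0.83 for chromosome 1 (H2AC25).

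Of 41 tested members 10 changed sign in at least 1 setting, 0 of them called, and the cause was not tested. H2BC9 went to -0.001 with RLE scaling, -0.001 with no filter, -0.023 with the stricter filter, -0.061 with the block, -0.002 with DESeq2 and -0.034 with limma-voom. H3C8 went to 0.053 with no scaling factor, 0.034 with the block and 0.029 with limma-voom, and H4C4 to -0.032 with the block and -0.015 with limma-voom. With a library left out, H2AC14 ranged from -0.021 to 0.737, H2AC8 from -0.282 to 0.697, H2BC17 from -0.365 to 0.625, H2BC26 from -0.136 to 0.262, H2BC4 from -0.198 to 2.344, H2BC8 from -0.851 to 0.458, H2BC9 from -0.431 to 0.186, H3C7 from -0.880 to 0.905, H3C8 from -0.410 to 0.298, H4C4 from -0.397 to 0.363 and LSM11 from -0.089 to 0.269. At this depth 28 of the 69 members held too few reads to be tested.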
